A study of Mus musculus with 47 samples.

Results

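The LIM-only (LMO) genes and the nearest partners of their protein complex were followed through 47 mouse T-cell lymphoblastic tumours. The 5 genes were Lmo1, Lmo2, Lmo4, Ldb1 and Lyl1, taken by gene symbol from the annotation of the array, out of 12393 genes with a probe set that names 1 gene. Each was read by 1 probe set: 1418478_at for Lmo1, 1454086_a_at for Lmo2, 1420981_a_at for Lmo4, 1452024_a_at for Ldb1 and 1419120_at for Lyl1. All 5 passed the filter on low signals, as did 8814 genes in all.

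The series profiled tumours that arose in mice with 14 genetic backgrounds that predispose to T-cell lymphoma, as named in the titles of the samples. Single transgenes were TLX1 (6 tumours), ThPOK (3), Tal1 (2), LMO1 (3), Nup98HoxD13 (3), Pokemon (2) and beta-catenin (3). Pairs of transgenes were Tal1-LMO2 (3) and olig1-LMO1 (3). Loss-of-function backgrounds were p53 knockout (3), E2A knockout (2), rag E2A knockout (2) and Ikaros Plastic (3), and 9 tumours came from Cdkn2a knockout mice that had also been exposed to retroviral insertional mutagenesis. The 6 TLX1 transgenic tumours were the only ones labelled TLX1 positive, and every sample was described as T-cell lymphoblasts. The series holds no normal thymus, so each background was set against the unweighted mean of the other 13. The labels state no promoter for any transgene, no age or strain, and not whether the tumours of a background came from separate mice, so p-values measure the spread between these samples only.

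LMO proteins consist of little more than LIM domains, which bind other proteins and not DNA. They act as bridges: LDB1 binds the LIM domains and dimerises, and the LMO protein in turn holds a basic helix-loop-helix factor, TAL1 or its close relative LYL1, paired with an E protein such as the products of Tcf3 (E2A), Tcf12 (HEB) and Tcf4, often beside a GATA factor. In blood stem and progenitor cells LMO2 and LYL1 are part of the normal programme, and both are turned down as thymocytes commit to the T lineage. LMO1, LMO2, TAL1 and LYL1 are oncogenes of T-cell acute lymphoblastic leukaemia when they are expressed out of place, whereas LMO4 and LDB1 are widely expressed.

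A signal is the summary of hybridization of 1 probe set on 1 array, in arbitrary units; signals of different probe sets are not on 1 scale and were never set against each other. The array medians ran from 49.5 to 106, and a signal above the median of its own array was counted as above it. Of the T cell marker genes listed, 10 were measured, and their summed signal was 8381 to 36560 in 45 tumours, and 17830 in TLX1 tumour 2, but 1713 in p53 knockout tumour 2. In that p53 knockout tumour the 11 endothelial markers summed to 19110, against 275.5 to 1644 in the 45 tumours. In TLX1 tumour 2 the 14 myeloid markers summed to 73350, the highest of the 47 tumours. Results that rest on either tumour are given with and without both.

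Lmo1 was high in 6 tumours and low in the other 41, and the 6 were the 3 tumours labelled LMO1 transgenic and the 3 labelled Nup98HoxD13. Its signal was 1860, 522 and 2344 in LMO1 transgenic tumours 1 to 3. It was 2526, 586.4 and 2154 in the tumours labelled Nup98HoxD13. Outside these 6 the highest value was 248.8, in rag E2A knockout tumour 1, so the 2 backgrounds did not overlap with any other, while their own ranges overlapped. The 6 were grouped for their high Lmo1, and other genes with such a gap were not counted.

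In the 3 tumours labelled olig1-LMO1 the Lmo1 signal was 11.14, 18.85 and 34.26, all below the medians of their arrays. The title of these tumours names LMO1, yet their values lay inside the range of the backgrounds with no LMO1 transgene. A mouse probe set may not read a transgene of another species or one that lacks the probed part, so this value alone does not check the label. An exchange of labels with the tumours labelled Nup98HoxD13, where Lmo1 was high, and a transgene that the probe set does not read cannot be told apart here, so all values of these 2 backgrounds are given by label only.

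On the log2(signal + 15.85) scale, the LMO1 transgenic tumours were higher in Lmo1 than the other backgrounds by 4.64 ± 0.51 (SE), a 24.9-fold difference (limma, adjusted p = 2.53e-07). The tumours labelled Nup98HoxD13 were higher by 4.81 ± 0.51 (limma, adjusted p = 9.69e-08). In these comparisons 1.03% of the tested genes were called for LMO1 transgenic and 3.01% for Nup98HoxD13, and Lmo1 was the only one of the 5 genes called in either. Nup98HoxD13 minus LMO1 transgenic was 0.16 (95% interval -1.25 to 1.57, adjusted p = 0.997; 0.159% of genes called), an interval that still allows more than a doubling either way. The difference between olig1-LMO1 and LMO1 transgenic tumours was -5.21 ± 0.70 (adjusted p = 1.79e-05), in a comparison where 0.964% of genes were called. These 3 Lmo1 calls held with each tumour left out in turn. In LMO1 transgenic tumours 2 of 7 B cell markers were also called higher, and their part was not tested.

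**Figure D1:**
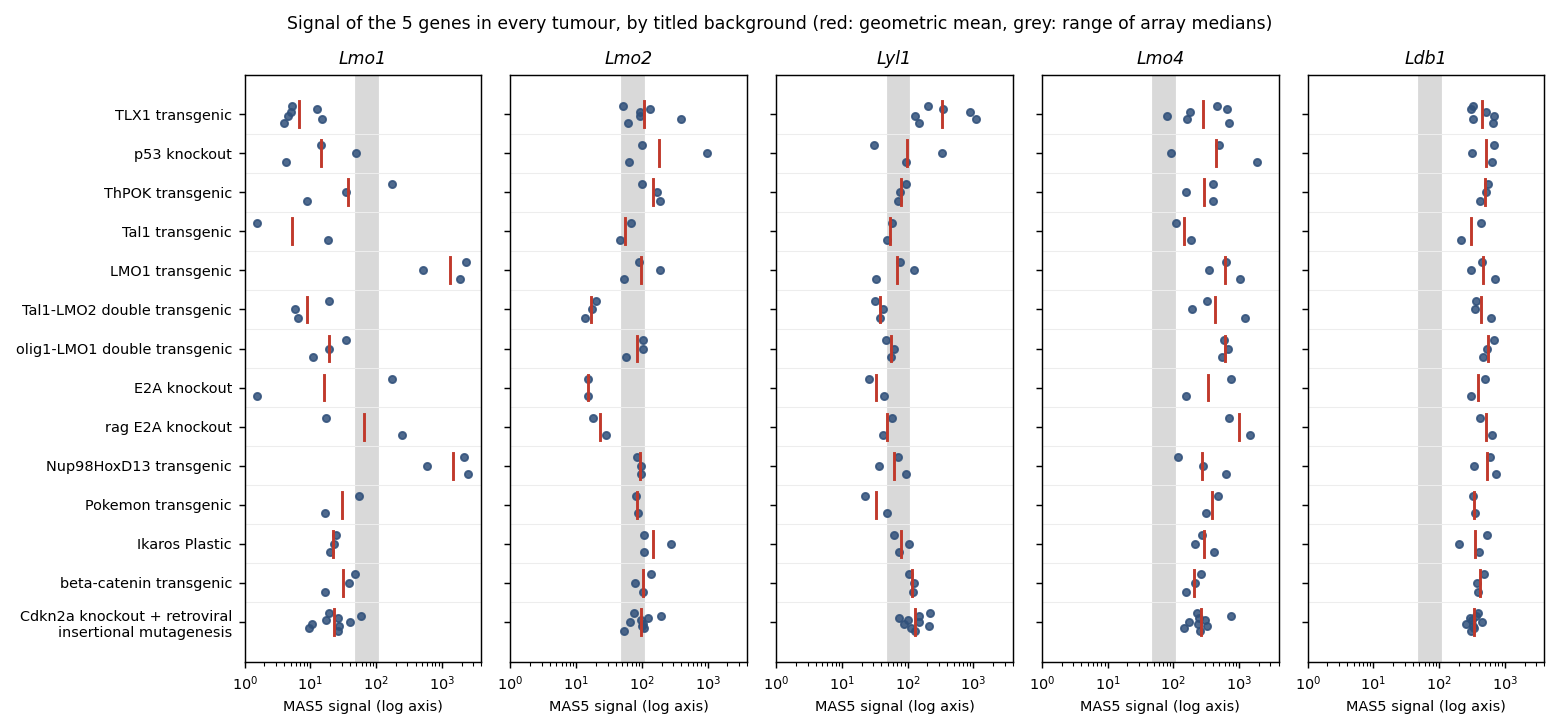
Signals of the 5 genes (x axis, log scale, arbitrary units) in the 14 backgrounds (rows), 1 panel per gene. Points are tumours, red bars are geometric means, and the grey band is the range of the array medians (49.5 to 106). Lmo1 stands at 522 or more in LMO1 transgenic and Nup98HoxD13 tumours alone, Lmo2 lies below the band in Tal1-LMO2, E2A knockout and rag E2A knockout tumours, and Lyl1 reaches its highest values in TLX1 transgenic tumours.

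Below this gap, 3 single tumours also had an Lmo1 signal above the median of their array. They were rag E2A knockout tumour 1 (248.8), ThPOK transgenic tumour 3 (172.5) and E2A knockout tumour 2 (172.0). In each case the rest of the background was far lower. The other rag E2A knockout tumour had 17.39, the other ThPOK transgenic tumours 8.759 and 34.66, and the other E2A knockout tumour 1.527. No whole background other than LMO1 transgenic and Nup98HoxD13 therefore stood above its array medians, and all neighbouring backgrounds from the third to the last in the order of mean log2 signal overlapped.

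At the low end were the 6 TLX1 transgenic tumours, with Lmo1 signals of 3.948 at the lowest, 5.181 at the median and 15.26 at the highest. Their difference from the other backgrounds was -1.66 ± 0.38 (limma, adjusted p = 0.000978), where 31.5% of all tested genes were called. The log2 ratio of the 3' to the 5' Gapdh probe signal, a measure of RNA quality, was 1.87 to 2.86 in 3 of these 6 tumours, against 0.706 at most in the 41 others, and with it in the fit the Lmo1 difference did not pass (-1.84, adjusted p = 0.088). In the 9 Cdkn2a knockout tumours Lmo1 was 9.457 at the lowest, 26.47 at the median and 58.28 at the highest, a difference of -0.82 ± 0.32 (adjusted p = 0.0469), where 30.7% of genes were called. Both rest on a mean that includes the 2 backgrounds with high Lmo1. Without these 2 in the mean, the difference was -0.88 for TLX1 transgenic (adjusted p = 0.0737) and -0.035 for Cdkn2a knockout (adjusted p = 0.948). The Cdkn2a call was also lost in 26 of the 47 fits that each left out 1 tumour, and no signal in either group was above the median of its array.

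Lmo2 showed the opposite pattern, a middle level in most tumours and a low one in 3 backgrounds. Its signal was 13.55, 17.3 and 19.8 in the tumours labelled Tal1-LMO2. It was 14.89 and 15.02 in E2A knockout tumours, and 28.67 and 18.14 in rag E2A knockout tumours. In the other 40 tumours the lowest signal was 45.84, in a Tal1 transgenic tumour, and the median 98.2, so the 7 low tumours did not overlap with the rest. They were grouped for their low Lmo2, and other genes with such a gap were not counted. Their array medians were low too, 49.52 to 61.18. As multiples of the array median, Lmo2 was 0.2318 to 0.4685 in the 7 tumours, against 0.7015 at the lowest elsewhere, in Cdkn2a knockout tumour 1.

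Lmo2 fell in Tal1-LMO2 tumours by 1.62 ± 0.42 on the log2 scale (limma, adjusted p = 0.0135), where 6.67% of genes were called. It fell in E2A knockout tumours by 1.71 ± 0.51 (adjusted p = 0.0429), where 4.33% were called. The rag E2A knockout tumours differed by -1.35 ± 0.51, which did not pass (adjusted p = 0.173), and 1.55% of genes were called there. With 3 or 2 tumours in a background these calls were close to the threshold. Leaving out Tal1-LMO2 tumour 1, 2 or 3 gave differences of -1.55, -1.63 and -1.68 and adjusted p-values of 0.0881, 0.0746 and 0.0825. The E2A knockout call was lost without E2A knockout tumour 1 (-1.71, adjusted p = 0.508) or 2 (-1.71, adjusted p = 0.216). It was also lost, by a narrower margin, without olig1-LMO1 tumour 3 (-1.70, adjusted p = 0.0501), rag E2A knockout tumour 1 (-1.69, adjusted p = 0.0503) or Pokemon tumour 1 (-1.71, adjusted p = 0.0501). Without p53 knockout tumour 2 and TLX1 tumour 2, Lmo2 was called lower in Tal1-LMO2 (-1.51, limma, adjusted p = 0.000193), E2A knockout (-1.60, adjusted p = 0.00147) and rag E2A knockout tumours (-1.23, adjusted p = 0.0249). These 2 tumours had the highest Lmo2 signals, 978 and 397.6, and were left out after the data were seen. The spread of Lmo2 shrank through that choice (SE 0.27 in place of 0.42 for Tal1-LMO2), so these p-values are no independent support.

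The Tal1-LMO2 title names the product of Lmo2, yet the lowest single Lmo2 signal, 13.55, was in one of these tumours; as for Lmo1, the probe set need not read the transgene. Tal1-LMO2 minus Tal1 transgenic was -1.14 for Lmo2 (95% interval -2.43 to 0.15, adjusted p = 0.651), where 0.465% of genes were called. The 2 Tal1 transgenic tumours had 45.84 and 67.91, above all 3 Tal1-LMO2 values.

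In the same 7 tumours, the summed myeloid and endothelial markers were low as well, and the B cell and erythroid sums overlapped with the rest. The 14 myeloid markers summed to 1089 to 1927 there, against 2220 to 73350 in the other 40 tumours (median 4634). The 11 endothelial markers summed to 275.5 to 419.8, against 481.1 to 19110 (median 860.9). The 7 B cell markers summed to 217.4 to 4347, against 285.6 to 18840, and the 2 erythroid markers to 22.84 to 898.2, against 8.948 to 383.2, with 324.5 and 898.2 in Tal1-LMO2 tumours 2 and 3. The 10 T cell markers summed to 22170 to 36560, against 1713 to 25600 (median 18360). Of single marker genes, 4 of 14 myeloid, 1 of 11 endothelial and 2 of 7 B cell markers were called lower in Tal1-LMO2 tumours, beside 5.23% of all genes, and 1 of 2 erythroid markers was called higher. In E2A knockout tumours 2, 1 and 2 of the first 3 lists were called lower, beside 2.83% of all genes. For rag E2A knockout tumours the numbers were 0, 0 and 1, beside 1.26% of all genes. The part of these markers in the Lmo2 result was not tested. In bulk tumours, fewer cells of a type and less RNA per cell cannot be told apart.

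At the high end, 1 tumour decided the Lmo2 value of a background. p53 knockout tumours had 63.4, 978 and 99.26, and the 978, the highest Lmo2 signal of the 47, came from tumour 2, whose endothelial markers were high and T cell markers low. The p53 knockout difference of 1.26 ± 0.42 passed the test (limma, adjusted p = 0.0275), where 21.7% of genes were called. Without tumour 2 it was 0.14 (adjusted p = 0.876), and without it and TLX1 tumour 2 it was 0.16 (adjusted p = 0.812). The second highest Lmo2 signal was 397.6, in TLX1 tumour 2, the tumour with the highest myeloid sum. The third was 280.7, in Ikaros Plastic tumour 2. With p53 knockout tumour 2 and TLX1 tumour 2 left out, Lmo2 was called higher in ThPOK transgenic (0.99, limma, adjusted p = 0.0111), Ikaros Plastic (1.01, adjusted p = 0.00461) and Cdkn2a knockout tumours (0.42, adjusted p = 0.0483). These calls too follow the removal of the 2 highest Lmo2 signals, which narrows the spread of Lmo2.

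**Figure D2:**
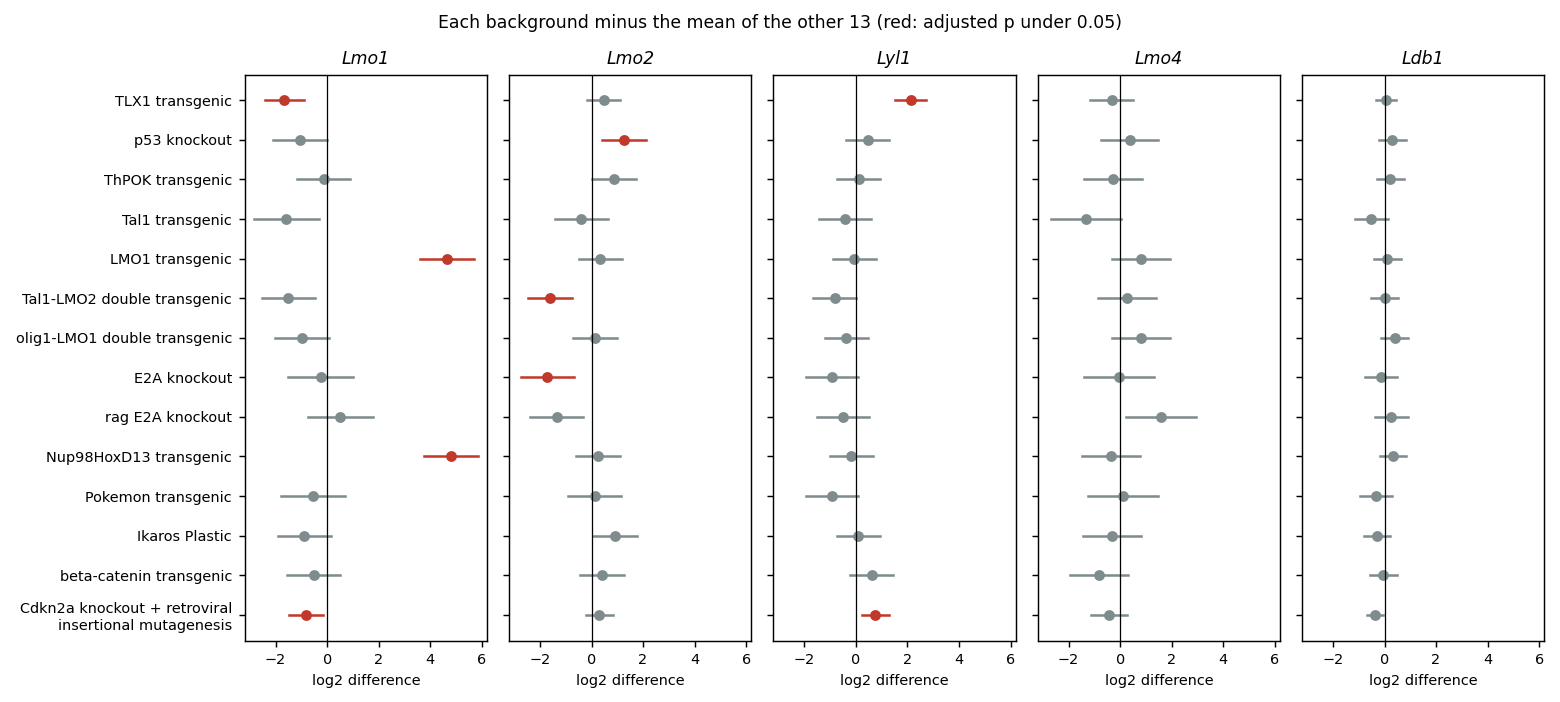
Difference of each background from the mean of the other 13 on the log2(signal + 15.85) scale (x axis) for the 5 genes, with 95% confidence intervals; red marks values called at an adjusted p under 0.05. The largest are Lmo1 in Nup98HoxD13 (4.81) and LMO1 transgenic tumours (4.64), followed by Lyl1 in TLX1 transgenic tumours (2.12); none of the Lmo4 and Ldb1 values is called.

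Lyl1, the helix-loop-helix partner, was highest in the TLX1 transgenic tumours. Their signals were 127.9 at the lowest, 275 at the median and 1090 at the highest. The 4 tumours with the highest Lyl1 signals were TLX1 tumour 2 (1090), TLX1 tumour 4 (902.8), TLX1 tumour 5 (348) and p53 knockout tumour 2 (332.6). The ranges nevertheless overlapped, since the lowest TLX1 tumour was below p53 knockout tumour 2 and 5 Cdkn2a knockout tumours.

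Lyl1 rose in TLX1 transgenic tumours by 2.12 ± 0.30 on the log2 scale, 4.35-fold (limma, adjusted p = 2.86e-06). The rise was 1.85 ± 0.26 without p53 knockout tumour 2 and TLX1 tumour 2 (adjusted p = 5.81e-06). RNA quality moved with this background. The log2 ratio of the 3' to the 5' Gapdh probe signal was 0.267 to 2.86 in TLX1 transgenic tumours, against -0.528 to 0.706 in the 41 others. With this ratio as a covariate the Lyl1 difference was 1.28 ± 0.47 and no longer passed (adjusted p = 0.122). Without TLX1 tumours 2, 5 and 6, whose ratios were 2.86, 2.37 and 1.87, it was 1.78 ± 0.38 (adjusted p = 0.00284). In these tumours 7 of 14 myeloid, 2 of 11 endothelial and 2 of 7 B cell markers were also called higher, beside 19% of all genes, and their part in the Lyl1 result was not tested.

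The Cdkn2a knockout tumours were second in the order of Lyl1. They had 73.55 at the lowest, 128.2 at the median and 219.7 at the highest, and rose by 0.75 ± 0.26 (limma, adjusted p = 0.024). This call was lost without Cdkn2a knockout tumour 3 (0.67, adjusted p = 0.0604) or tumour 9 (0.66, adjusted p = 0.0604). The backgrounds of lowest mean log2 Lyl1 signal were E2A knockout, Pokemon and Tal1-LMO2, with 42.97 and 25.98 in E2A knockout, 48.69 and 22.4 in Pokemon, and 38.58, 41.89 and 32.27 in Tal1-LMO2 tumours; none of them was called for Lyl1, and single tumours of other backgrounds were as low (30.44 in p53 knockout tumour 3). Of the 70 tests of 5 genes in 14 backgrounds, 9 were called in all: 4 for Lmo1, 3 for Lmo2 and 2 for Lyl1. Among all tested genes, the share called ran from 0.658% in olig1-LMO1 to 31.5% in TLX1 transgenic tumours. It was 30.7% in Cdkn2a knockout tumours, so the count alone does not set the 5 genes apart. The 7 backgrounds with no call among the 5 genes were ThPOK (11.8% of all tested genes called), Tal1 (4.96%), olig1-LMO1 (0.658%), rag E2A knockout (1.55%), Pokemon (0.953%), Ikaros Plastic (22.8%) and beta-catenin (18.8%).

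Because LYL1, like TAL1, binds E-box sequences with its E protein partner, and LMO complexes join E-boxes to GATA sites, the RefSeq promoter windows of the 5 genes were searched for such motifs. The table (build GRCm38.p6, 250 bases before to 50 after a start) had 9 entries for 4 of the 5 genes, and none was used for Lmo2. On either strand, the composite of CTG and GATA with 9 bases between them was in 2.51% of the 32851 promoters and in none of the 9 entries. The same held for CAGATG (17.2% of promoters) and TGATAA (9.05%). AGATAA, which shares its GATA letters with TGATAA and the composite, was in 11.2% of promoters and matched at 2 places in 1 Ldb1 entry. CAGGTG, in 20.2% of promoters, matched once, in Lyl1, whose window is shown because it held this match. The match starts 235 bases before the start of the gene and reads CACCTG on the strand of Lyl1, in capitals in the upstream window at chr8:84701207-84701456 (plus strand):
Lyl1: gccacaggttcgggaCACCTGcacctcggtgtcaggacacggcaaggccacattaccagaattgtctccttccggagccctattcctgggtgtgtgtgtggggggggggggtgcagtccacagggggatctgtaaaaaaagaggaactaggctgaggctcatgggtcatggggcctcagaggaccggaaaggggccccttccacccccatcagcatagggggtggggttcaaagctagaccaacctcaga
A match of letters describes the window and shows no binding.

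Lmo4, a LIM-only protein that also binds LDB1, was above the median of its array in all 47 tumours, with signals of 81.25 at the lowest, 309.3 at the median and 1881 at the highest. It varied mainly among tumours of the same background. p53 knockout tumours had 1881, 90.48 and 501.3, and Tal1-LMO2 tumours 1219, 191.1 and 324. The SD of the log2 values was 1.01 over all tumours and 0.974 within backgrounds. The rag E2A knockout tumours, with 1456 and 696.8, stood first in the order of means, and their difference of 1.57 ± 0.67 did not pass (limma, adjusted p = 0.228). The Tal1 transgenic tumours, with 186.6 and 109.8, stood last (-1.32 ± 0.67, adjusted p = 0.293).

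Ldb1, the dimerising hub of the complex, varied least. Its signal was 198.4 at the lowest, 398.7 at the median and 735.5 at the highest, and the SD of its log2 values was 0.453. All 47 tumours were above the median of their array, and every background overlapped with the next in the order of means. The 9 Cdkn2a knockout tumours had 254.5 to 448.5 (median 325.8), a difference of -0.37 ± 0.16 (limma, adjusted p = 0.0749). For Lmo4 and Ldb1 together, limma called 0 of 28 tests, and 2 of 28 were under an unadjusted p of 0.05. Of all tested genes, 0.658% to 31.5% were called, depending on the background. The Ldb1 value in Cdkn2a knockout tumours did pass without p53 knockout tumour 2 (-0.40, adjusted p = 0.0407), without Tal1 transgenic tumour 1 (-0.40, adjusted p = 0.0473) or without Ikaros Plastic tumour 2 (-0.40, adjusted p = 0.039). It also passed with array weights (-0.47, adjusted p = 0.00218), with the Gapdh ratio in the fit (-0.50, adjusted p = 0.0113) and without TLX1 tumours 2, 5 and 6 (-0.40, adjusted p = 0.0378).

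How often Lmo1, Lmo2 and Lyl1 were found together depended on the level taken as use. Fewer tumours pass a stricter level, so a smaller number with 2 genes does not by itself show exclusion. Above the median of the array were Lmo1 in 9 tumours, Lmo2 in 31 and Lyl1 in 26. At this threshold 21 tumours had at least 2 of the 3 genes, 20 had exactly 1 and 6 had none. Of the 9 tumours with Lmo1, 6 also had Lmo2, against 31 of 47 for Lmo2 in all tumours. Of the 26 with Lyl1, 19 also had Lmo2, and 4 tumours had all 3 genes.

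Above 2 times the array median, Lmo1 was counted in the same number of tumours, 9, but Lmo2 in 7 and Lyl1 in 9. Now 3 tumours had at least 2 of the genes. TLX1 tumour 2 and p53 knockout tumour 2, the tumours with high myeloid or endothelial markers, had Lmo2 with Lyl1, and LMO1 transgenic tumour 2 had all 3. Of the 9 tumours with Lmo1, 8 had neither of the others. Most of the 47 tumours also had neither Lmo2 nor Lyl1 at this level, and 26 had none of the 3. Above the 75th percentile of the array, the 6 LMO1 transgenic and Nup98HoxD13 tumours had Lmo1 and neither Lmo2 nor Lyl1. TLX1 tumour 2 and p53 knockout tumour 2 had both Lmo2 and Lyl1, TLX1 tumours 4 and 5 had Lyl1 alone, and 37 tumours had none. Above that percentile Lmo2 was counted in 2 and Lyl1 in 4 of the 47 tumours. These counts describe the tumours and were not tested, and they do not show exclusion.

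**Figure D3:**
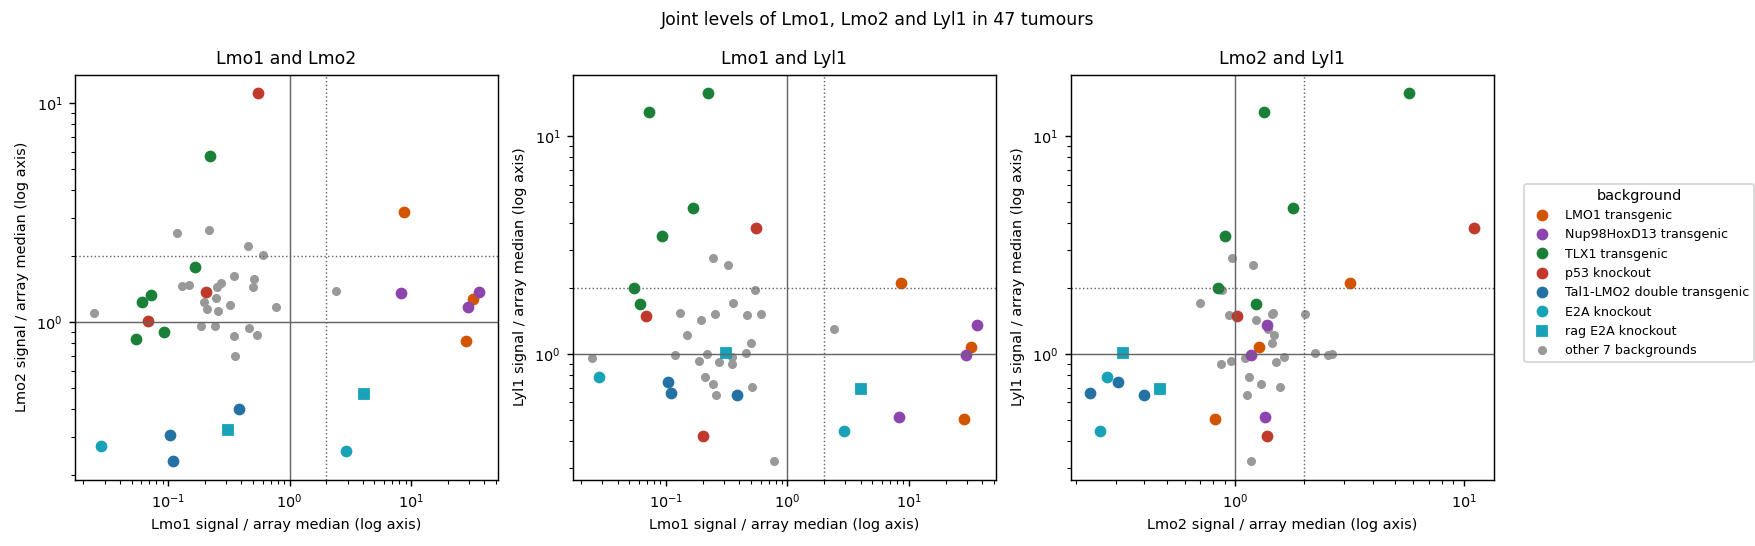
Signals of Lmo1, Lmo2 and Lyl1 set pairwise against each other, each as a multiple of the array median on log axes, 1 point per tumour, with 7 backgrounds marked by colour or shape and the other 7 in grey; solid lines mark the array median and dotted lines 2 times it. The 6 Lmo1-high tumours lie apart along the Lmo1 axis, 1 of them above 2 times the median for Lmo2 and Lyl1 as well, and TLX1 tumour 2 and p53 knockout tumour 2 lie high for both Lmo2 and Lyl1.

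Within the Lmo1-high tumours, the pair of tumours with the lowest Lmo1 differed in the other genes. LMO1 transgenic tumour 2 (Lmo1 522) had an Lmo2 signal of 190.9 and a Lyl1 signal of 127.1, the highest of the 6 for both. Nup98HoxD13 tumour 2 (Lmo1 586.4) had 96.25 and 36.64. The 3 Tal1-LMO2 tumours had none of Lmo1, Lmo2 and Lyl1 above the array median. E2A knockout tumour 2 and rag E2A knockout tumour 1 had Lmo1 alone, rag E2A knockout tumour 2 had Lyl1 alone, and E2A knockout tumour 1 had none.

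Over tumours, Lmo2 and Lyl1 varied together. Of the 10 pairs of genes, Lmo2 and Lyl1 had the highest Pearson r, 0.549 over 47 tumours (permutation p = 7e-05, adjusted over the 10 pairs 0.0007), with a Spearman coefficient of 0.452 (permutation p = 0.00162, adjusted p = 0.0162). The 2 tumours farthest from the Lmo2 median were p53 knockout tumour 2 and TLX1 tumour 2. Without these 2 tumours r was 0.396, so the call rests on them. Its adjusted p (permutation) was 0.0717 or 0.055, depending on the tumours used for the other pairs in the adjustment. Values centred within backgrounds gave 0.589 (permutation, adjusted p = 0.103). The 14 background means gave r 0.578 (permutation, adjusted p = 0.152) and a Spearman coefficient of 0.824 (adjusted p = 0.0051). The Spearman coefficient was 0.306 centred within backgrounds (permutation, adjusted p = 0.291), 0.321 with quantile normalization (adjusted p = 0.139) and 0.38 without the 2 tumours (adjusted p = 0.105). Without the 6 TLX1 transgenic tumours r was 0.618 (permutation, adjusted p = 0.0002).

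Lmo4 and Ldb1 had r 0.403 over the 47 tumours (permutation p = 0.00464, adjusted p = 0.0232) and a Spearman coefficient of 0.364 (p = 0.0122, adjusted p = 0.061). Without the 2 tumours farthest from the Lmo4 median r was 0.322 (permutation, adjusted p = 0.103), so this call rests on those tumours too. Centred within backgrounds r was 0.316 (permutation, adjusted p = 0.198), and without the 6 TLX1 transgenic tumours it was 0.541 (adjusted p = 0.0017). Lmo2 and Lmo4 had r -0.346 (permutation p = 0.0168, adjusted p = 0.056) and -0.217 without p53 knockout tumour 2 and TLX1 tumour 2 (adjusted p = 0.293). It passed with quantile normalization (-0.361, permutation, adjusted p = 0.04) and without the 6 Lmo1-high tumours (-0.363, adjusted p = 0.0396).

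Lmo1 fell into 2 clusters, so no pooled correlation was made for it. Over the 41 tumours outside the high cluster, r with Lmo2 was 0.0605 (permutation, adjusted p = 0.703) and with Lyl1 -0.172 (adjusted p = 0.348). Within the 6 high tumours, r with Lmo2 was -0.634 (exact permutation p = 0.19) and with Lyl1 -0.0212 (exact p = 0.979). Lmo1 and Ldb1 had r 0.852 there (exact permutation p = 0.0431, adjusted over 4 pairs 0.172), which did not pass. Neither cluster thus gave an inverse relation of Lmo1 with Lmo2 or Lyl1 that passed a test, and a lack of a call does not show that there was none.

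Of 25 other partners of the complex (E proteins, ID inhibitors, GATA and RUNX factors, ETO family and single-stranded DNA-binding proteins), 20 passed the filter; Tal1, Tal2, Runx1t1, Erg and Lmo3 did not. Of 22 genes known to lie downstream of LMO2, TAL1 or LYL1, 15 passed. In LMO1 transgenic and in Nup98HoxD13 tumours limma called 0 of 20 partners and 0 of 15 downstream genes, beside 1.03% and 3.01% of all tested genes. With shares this low, lists of this length cannot show that their genes were unchanged. At an unadjusted p under 0.05, LMO1 transgenic tumours had 1 partner and 2 downstream genes, and Nup98HoxD13 tumours had 1 and 0. The partners' median difference was -0.01 in LMO1 transgenic tumours, beside 0.00 for all tested genes, and 0.04 in Nup98HoxD13 tumours, beside -0.01. The downstream genes' medians were 0.42 and 0.32. Similar medians were found in TLX1 transgenic (0.39) and Ikaros Plastic tumours (0.37), where no tumour had Lmo1 above its array median.

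The Tal1 probe set itself was above the median of its array in 1 tumour of 47, p53 knockout tumour 2 (205.1), and had 8.931 and 15.27 in the 2 Tal1 transgenic tumours. Tcf3, which encodes the E2A proteins, had 146.3 and 275 in the 2 E2A knockout tumours, against 203 to 1010 in the other 45. It fell there by 1.28 ± 0.29 (limma, adjusted p = 0.00562) and was the 1 partner called of 20. The 2 rag E2A knockout tumours had 275.7 and 227.2, a difference of -0.97 ± 0.29 that did not pass (adjusted p = 0.0752).

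Values of list genes are those of the brightest probe set of each. In TLX1 transgenic tumours 2 of 20 partners rose and 2 fell, beside 19% and 12.5% of all genes, with a median of 0.02 beside 0.07 for all genes. Cbfa2t3, an ETO family corepressor (ETO2) of the TAL1 complex, had 399.1 to 633.8 there, against 2.475 to 434.9 elsewhere, and rose by 1.49 ± 0.31 (limma, adjusted p = 0.000357). Gata3, the GATA factor of T cells, rose by 1.11 ± 0.34 (adjusted p = 0.0109). Runx1 fell by 1.35 ± 0.27 (adjusted p = 0.000241), though a dimmer Runx1 probe set was not lower, and Fli1, an ETS factor, fell by 0.74 ± 0.16 (adjusted p = 0.000584). Of the downstream genes, Il7r, the IL-7 receptor chain, rose by 1.63 ± 0.57 (adjusted p = 0.027). Myc fell by 1.38 ± 0.22 (adjusted p = 1.46e-05) and the pseudokinase gene Trib2 by 2.06 ± 0.44 (adjusted p = 0.000571). When the Gapdh ratio was added to the fit, the calls among both lists numbered 1 in place of 7.

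In Cdkn2a knockout tumours, where Lyl1 also rose, 3 of 20 partners rose and 6 fell, beside 16.1% and 14.6% of all genes, and several went against the TLX1 transgenic tumours. Cbfa2t3 had a median of 15.06 (2.475 to 166.6), against a median of 233.9 in the other 38 tumours, and fell by 2.12 ± 0.26 (limma, adjusted p = 1.99e-07). Gata3, which is not among the 4 lowest p-values there and was added for comparison, fell by 1.01 ± 0.28 (adjusted p = 0.00653). Ssbp3, which stabilises LDB1, fell by 1.06 ± 0.17 (adjusted p = 1.28e-05), Runx1 fell by 0.86 ± 0.23 (adjusted p = 0.00393), and Fli1 rose by 0.81 ± 0.14 (adjusted p = 2.68e-05). Of the downstream genes 3 rose and 2 fell: Myc rose by 1.24 ± 0.19 (adjusted p = 5.73e-06), Gfi1 by 0.99 ± 0.30 (adjusted p = 0.0112) and Flt3 by 0.62 ± 0.20 (adjusted p = 0.0174), while Hes1, a Notch target, fell by 1.71 ± 0.27 (adjusted p = 1.36e-05). The comparisons of the 2 backgrounds share their other tumours, and the difference between them was not tested. Of the T cell markers 4 of 10 were called lower and of the myeloid markers 2 of 14 higher in Cdkn2a knockout tumours, and their part was not tested. Beta-catenin tumours, where Lyl1 was not called, had 3 of 20 partners higher and 4 lower, beside 18.8% of all genes called. Cbfa2t3 had 36.84 to 69.86 there, Ssbp3 188.2 to 234.7 and Hes1 35.69 to 43.97. The medians elsewhere were 226.5, 580.1 and 194.2. Fli1 had 704.5 to 909.8, against a median of 452.4. Myc, Gata3 and Runx1 were not called there.

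**Figure D4:**
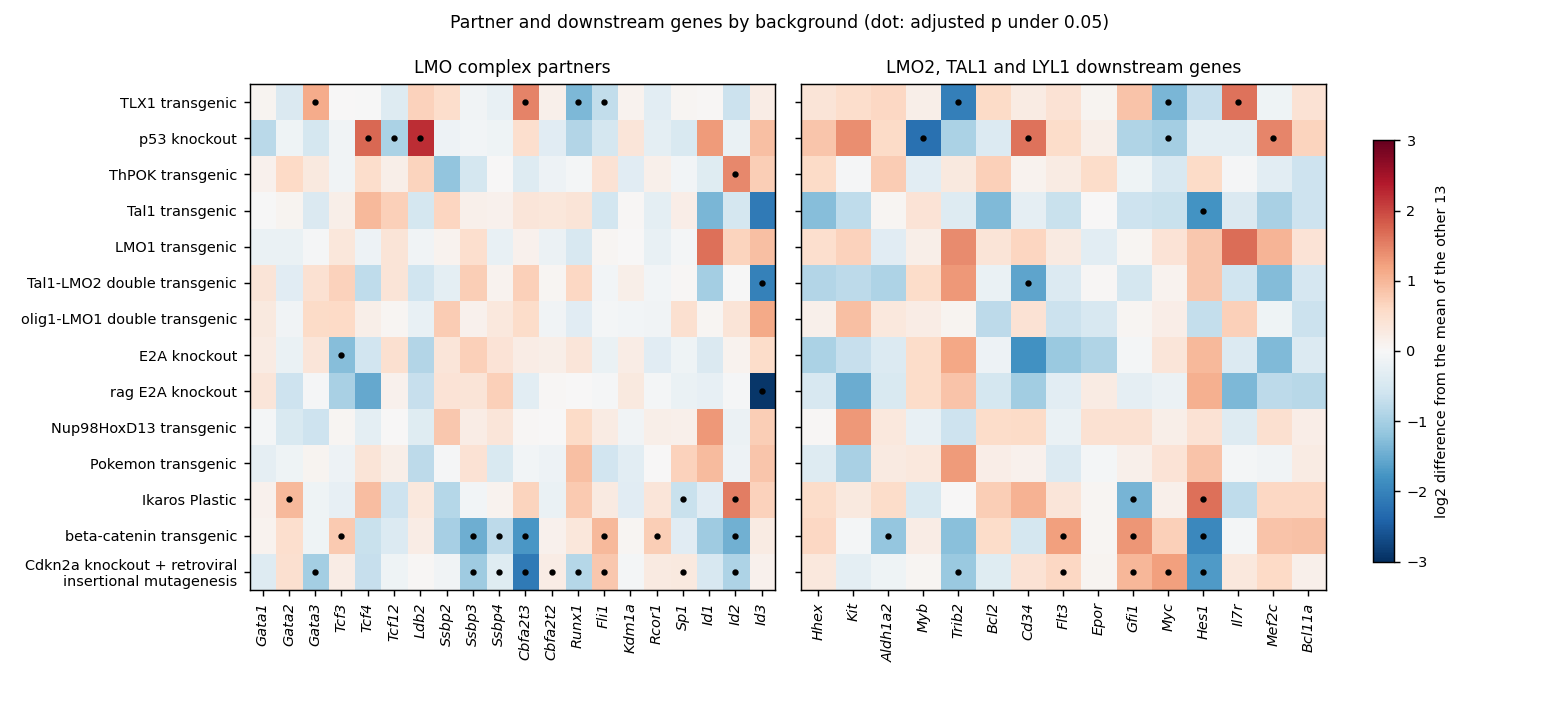
Differences from the mean of the other 13 backgrounds (colour, log2 scale) of 20 partner genes and 15 downstream genes (columns) in the 14 backgrounds (rows); dots mark values called at an adjusted p under 0.05. The LMO1 transgenic and Nup98HoxD13 rows hold no dot, beside 1.03% and 3.01% of all tested genes called there. Cbfa2t3 is higher in TLX1 transgenic and lower in Cdkn2a knockout and beta-catenin tumours.

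In the Lmo2-low backgrounds the calls were few, 1 lower partner in each, beside 5.23% of all genes lower in Tal1-LMO2, 2.83% in E2A knockout and 1.26% in rag E2A knockout tumours. In Tal1-LMO2 tumours Id3, an inhibitor of E proteins, had 16.31, 27.7 and 197.5, against a median of 317.1 in the other 44 tumours, and fell by 2.03 ± 0.58 (limma, adjusted p = 0.027). Cd34, a progenitor surface gene also found on endothelium, had 10.31, 5.365 and 0.9588, against a median of 51.31, and fell by 1.58 ± 0.46 (adjusted p = 0.0294). In rag E2A knockout tumours, named after their values were seen, Id3 had 23.71 and 19.7 and fell by 2.93 ± 0.70 (adjusted p = 0.024), the 1 partner called of 20. The downstream median was -0.50 in Tal1-LMO2, -0.41 in E2A knockout and -0.46 in rag E2A knockout tumours, beside -0.05, -0.07 and -0.05 for all genes. It was lower still in Tal1 transgenic tumours (-0.62, beside -0.09), which are not among the Lmo2-low backgrounds.

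In p53 knockout tumours 2 partners rose and 1 fell, and 2 downstream genes rose and 2 fell, beside 12.4% and 9.34% of all genes. The highest values of Ldb2, Cd34, Mef2c and Tcf4 were in tumour 2. Ldb2, the paralogue of Ldb1, had 1635 in tumour 2, against 118.1 at most in the 44 tumours of other backgrounds, and Cd34 had 1338, against 133.5. Tcf4 was also above the median of the other backgrounds, 138.3, in the other p53 knockout tumours, with 257.3 and 291.3. The fitted rises were 2.21 ± 0.41 for Ldb2 (limma, adjusted p = 0.000302), 1.71 ± 0.46 for Tcf4 (adjusted p = 0.00721), 1.62 ± 0.46 for Cd34 (adjusted p = 0.0111) and 1.46 ± 0.52 for Mef2c (adjusted p = 0.0415). Myb had 44.08 at the lowest and fell by 2.23 ± 0.47 (adjusted p = 0.00106), Tcf12 fell by 0.96 ± 0.24 (adjusted p = 0.00418) and Myc by 1.03 ± 0.30 (adjusted p = 0.0128). Without p53 knockout tumour 2 and TLX1 tumour 2, 1 partner was called higher and 2 lower, and the calls among both lists numbered 3 in place of 7. Of the endothelial markers 10 of 11 were called higher and of the T cell markers 6 of 10 lower in this background.

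The genes most like each of the 5 over the 47 tumours were ranked by Pearson r of the log2 signals among the 8814 tested genes, as a description. For Lmo1 they were Hivep1 (0.678) and Dennd6a (0.657), followed by AW549877, Tmem185b and Tmed7 (0.586 to 0.567). Dennd6a had 396.7 to 761.6 in the 6 Lmo1-high tumours, against 128.9 to 415.9 in the other 41, so it overlapped only at the edge. Hivep1, a zinc finger gene, had 155.1 to 431.7, against 52.66 to 210.7. Both genes were chosen for likeness to Lmo1 over the same tumours, so they follow this split by choice.

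For Lmo2 the likeness was closer: Myadm and Ifitm3 (both 0.874), Serpinh1 (0.873), Fkbp9 (0.869) and Anxa3 (0.868). Without p53 knockout tumour 2 and TLX1 tumour 2 these were 0.833, 0.868, 0.825, 0.83 and 0.801. Serpinh1 encodes a collagen chaperone and Ifitm3 an interferon-induced membrane protein. Ifitm3, chosen by its likeness over the same tumours, differed by -2.53 ± 0.36 in Tal1-LMO2 (limma, adjusted p = 1.83e-05) and by -2.26 ± 0.43 in E2A knockout tumours (adjusted p = 0.00117).

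For Lyl1 the most alike were Egln2 (0.787), a prolyl hydroxylase that acts on hypoxia-inducible factor, Gadd45b (0.737), Zbtb20 (0.732), Psen2 (0.728) and Cldn15 (0.724). Lyl1 was itself highest in TLX1 transgenic tumours, and genes chosen for likeness to it over the same tumours follow it there by choice, so their differences are a description. These ran from 0.65 for Cldn15 to 1.52 for Zbtb20. For Lmo4 the most alike was Ptpn22 (0.635), a lymphocyte phosphatase gene, followed by Ppp1r21, Rbm22, Slc39a8 and Fam184b (0.525 to 0.494). For Ldb1 it was Abr (0.71), followed by Abhd8, Acin1, Phf12 and Arhgap1 (0.677 to 0.642).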

How the data were processed

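Total RNA of 47 tumours was turned into biotinylated cRNA for Affymetrix arrays, per the labels' protocols. The authors deposited 1 MAS5 signal per probe set and array, per the submitters' processing notes, which name no release of it. The deposited signals of every array had the same trimmed mean (250.063 to 250.129 with 2% left out at each end), so arrays were already scaled. Of 22690 probe sets, 64 were controls, 20380 named 1 gene, 691 several and 1555 none; where a gene had several, the brightest stood for it.

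Here log2(signal + 15.85) was fitted with limma 3.58.1 in R 4.3.3 with 1 mean per background and a mean-variance trend, so that backgrounds of 2 or 3 tumours share the spread of all. A gene was tested where at least 2 arrays were above their median (8814 of 12393 genes). P-values were adjusted by Benjamini-Hochberg over all tested genes, and 0.05 was the threshold. Intervals cover the spread between tumours; the number of arrays limits the precision. Correlations used 100000 permutations, or all 720 orders for 6 tumours. Python 3.11.15 with numpy 2.4.6, pandas 2.3.3 and matplotlib 3.10.9 made the descriptions.

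The genes and lists were chosen with earlier results of these data known. Named list genes are the up to 4 called genes of lowest p in comparisons where one of the 5 genes was called, the 5 genes most like each, and Tal1 and Tcf3. Alternatives were other pseudocounts, quantile normalization, filters, array weights, the 3'/5' ratio, replicate numbers as a block, and leaving out tumours; the fit without p53 knockout tumour 2 and TLX1 tumour 2 and the Lmo1 mean without 2 backgrounds were chosen after seeing the data.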

Additional observations from a re-analysis of the deposited data

Results flagged for a closer look

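Of the 5 genes in the 2 backgrounds with 6 or 9 tumours, 10 groups of values were examined for a tumour far from the others, and 1 stood out. The Lmo4 signal of Cdkn2a knockout tumour 8 was 755.1, against 145.8 to 322.4 in the other 8, and its gap to the nearest tumour was 0.527 of the range of the group (critical value 0.493). Chance marks about 1 in 20 such groups.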

How the results depend on the processing

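The Lmo1 calls in LMO1 transgenic (3.47 to 5.53), Nup98HoxD13 (3.64 to 5.71) and olig1-LMO1 against LMO1 transgenic tumours (-6.01 to -3.92) kept direction and call under all alternatives run, and no result reversed. Other calls near the threshold did not hold everywhere. A pseudocount of 1 gave -0.71 for Lmo1 in Cdkn2a knockout tumours (limma, adjusted p = 0.276). A pseudocount at the median signal gave -0.88 for Lmo2 in Tal1-LMO2 (0.116), -0.92 for Lmo2 in E2A knockout (0.215) and 0.45 for Lyl1 in Cdkn2a knockout tumours (0.0781). Quantile normalization gave -1.32 (0.0782) and -1.49 (0.133) for Lmo2 in Tal1-LMO2 and E2A knockout tumours. Without the filter Lmo2 in E2A knockout was -1.71 (0.0585) and Lmo1 in Cdkn2a knockout -0.82 (0.0512). Array weights gave 0.38 for Lmo2 in p53 knockout tumours (0.694) and raised the calls of the 70 tests to 14 from 9. The 3'/5' ratio as a covariate gave Lyl1 1.28 (0.122) and Lmo1 -1.84 (0.088) in TLX1 transgenic, Lmo2 1.02 (0.0773) in p53 knockout and Lmo1 -0.79 (0.0755) in Cdkn2a knockout tumours. Without TLX1 tumours 2, 5 and 6, Lmo1 in Cdkn2a knockout was -0.81 (0.0601). Without p53 knockout tumour 2 and TLX1 tumour 2 it was -0.78 (0.0545), and Lmo2 in p53 knockout 0.16 (0.812). Without the LMO1 transgenic and Nup98HoxD13 backgrounds in the mean, Lmo1 was -0.88 (0.0737) in TLX1 transgenic and -0.035 (0.948) in Cdkn2a knockout tumours. The causes were not tested.

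Leaving out each tumour in turn gave Lmo1 -1.79 to -1.53 in TLX1 transgenic and -0.95 to -0.69 in Cdkn2a knockout tumours. It gave Lmo2 0.14 to 1.96 in p53 knockout, -1.68 to -1.53 in Tal1-LMO2 and -1.76 to -1.62 in E2A knockout tumours, and Lyl1 1.79 to 2.38 in TLX1 transgenic and 0.66 to 0.84 in Cdkn2a knockout tumours. The calls of the 70 tests then numbered 7 to 10.

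The numbers in the titles did not pair the tumours: deviations from background means correlated at -0.00137 over 230 pairs of the same number and at 0.00103 over 772 pairs of different numbers. With the replicate number as a block, Lmo1 was -1.03 (limma, adjusted p = 0.111) and Lyl1 0.73 (0.155) in Cdkn2a knockout tumours, and no other call changed among the 5 genes.

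At 2 times the array median and at the 75th percentile, Lmo1 with Lmo2 was counted in 1 and 0 tumours (6 above the median), Lmo1 with Lyl1 in 1 and 0 (4), Lmo2 with Lyl1 in 3 and 2 (19), and at least 2 genes in 3 and 2 (21). For Lmo2 and Lyl1, r was 0.589 centred within backgrounds (permutation, adjusted p = 0.103) and 0.578 over background means (0.152). It was 0.396 without p53 knockout tumour 2 and TLX1 tumour 2, which are also the 2 farthest from the Lmo2 median (0.055 or 0.0717). For Lmo4 and Ldb1 it was 0.316 centred (0.198) and 0.593 over background means (0.152). It was 0.322 without the 2 tumours farthest from the Lmo4 median (0.103) and 0.375 without the 2 named tumours (0.055).

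The number of genes called differed by over 1.5 times from the reported one under some alternative in every background but Ikaros Plastic, with 2013 (alternatives 1609 to 2822). It was 2780 for TLX1 transgenic (alternatives 310 to 3706), 1916 for p53 knockout (305 to 2195), 1041 for ThPOK (929 to 2596), 437 for Tal1 (98 to 557), 91 for LMO1 (66 to 1360), 588 for Tal1-LMO2 (265 to 1079), 58 for olig1-LMO1 (36 to 289) and 382 for E2A knockout (150 to 560). It was 137 for rag E2A knockout (42 to 437), 265 for Nup98HoxD13 (105 to 371), 84 for Pokemon (58 to 1144), 1658 for beta-catenin (1507 to 3283) and 2705 for Cdkn2a knockout tumours (1713 to 4112). With each tumour left out in turn the numbers were 13 to 147 for LMO1, 67 to 345 for Nup98HoxD13, 150 to 751 for Tal1-LMO2, 23 to 510 for E2A knockout, 9 to 262 for rag E2A knockout, 13 to 80 for olig1-LMO1, 582 to 2412 for p53 knockout, 274 to 1299 for ThPOK, 127 to 531 for Tal1, 6 to 112 for Pokemon, 521 to 2489 for Ikaros Plastic, 710 to 1935 for beta-catenin, 2119 to 3194 for TLX1 transgenic and 2312 to 3039 for Cdkn2a knockout tumours. The lowest number of each background came without one of its own tumours. Of the 20 partners, 0 to 3 were called higher and 1 to 3 lower in TLX1 transgenic tumours, and 1 to 5 higher and 5 to 8 lower in Cdkn2a knockout tumours. The number of tumours per background and signals near background limit what the low values can show.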
